A study of Ovis aries with 24 samples.

Results

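Cytosolic ribosomal proteins are the protein components of the ribosomes that translate nuclear-encoded mRNA. The members were the single gene symbols of the array's probe-to-gene table that start with RPL or RPS and a number, with RPLP0, RPLP2 and RPSA, leaving out the S6 kinases. They came to 69 of 9155 symbols. For each symbol the probe set with the highest mean log2 signal over all arrays was used. The members hold 40 large subunit proteins and 24 small subunit proteins. A further 4 are paralogs or like proteins (RPL3L, RPL26L1, RPS27L and RPL7L1), and RPS19BP1 is a nucleolar protein that binds RPS19 and is no subunit. Another 67 symbols are mitochondrial ribosomal proteins and were not members.

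Each ribosome needs a copy of nearly every subunit protein, and these proteins are made in near equal amounts. Their mRNAs belong to the most abundant of any cell, share a short pyrimidine tract at the 5′ end (the TOP motif) and are translated under control of the TOR kinase. In muscle, ribosome number limits how much protein a fibre can make, and ribosome synthesis is high in growing fibres. RPL3L is a paralog of RPL3 that is found mainly in striated muscle, and in mice it is known to fall while RPL3 rises when a muscle is overloaded.

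The study compared skeletal muscle of Dorset/Suffolk/Rambouillet cross-bred sheep that differ at the callipyge locus, where lambs that inherit the C allele from the father and an N allele from the mother grow enlarged muscles in the back and hind limb. The longissimus dorsi (LD) of the back was sampled at 11 to 12 weeks (T12) and within 5 days of birth (T0) from genotypes CN (paternal heterozygote, the callipyge animals), CC (homozygote), NC (maternal heterozygote) and NN (wild type). At T12 there were also supraspinatus (SS), a shoulder muscle, from CN and NN, and the muscles coded SM and ST from NN. The labels name ST semitendinosus but give conflicting names for SM. Each of the 12 groups had 2 arrays that the labels call technical replicates, so the group was the unit of every test. The protocol speaks of 8 male lambs, 4 per genotype, while 4 genotypes were hybridised, so the number of animals behind an array is unknown, and p-values measure the spread between group values. The word birth also stands in T12 labels, and ages were taken from the sample titles.

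Muscle RNA was hybridised to a bovine array, and values are linear MAS5 signal. Arrays had median signals of 47.35 to 59.65, and the brightest value of all was 47010. The log2 signals of the paired arrays correlated at 0.974 to 0.988 across probe sets whose mean log2 exceeded 8. All 10 skeletal fibre markers on the array were above the low-signal limit of 49.7 in every group, and the 2 heart markers on it summed to 18.1 to 59.1 in the LD groups, 31.8 in ST, 38.4 in SM, 63.1 in SS of NN and 118 in SS of CN.

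The ribosomal protein mRNAs were among the brightest signals of the array. Of 69 members, 61 had a mean log2 signal above 12. RPL24 averaged a signal of 27539, RPL4 26572, RPS3A 22551, RPS18 21977 and RPL13A 21927. Signals of different probe sets cannot be ranked as mRNA amounts, since each probe set binds sheep RNA with its own strength. 3 members sat near background: RPL37 averaged 70.6, RPL7L1 63.7 and RPS19 16.3. RPS19 passed the low-signal filter in no group, so 68 members were tested. Values of these dim probe sets say little about their genes.

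The members moved together across the 12 groups. The median signal over members in LD at T12 was 12195 in CN, 13082 in CC, 14285 in NC and 12613 in NN, and at T0 it was 14711 in CN, 16716 in CC, 16286 in NC and 15724 in NN. In the other muscles it was 12887 in SS of CN, 12375 in SS of NN, 13588 in SM and 11559 in ST. Every genotype stood lower at T12 than at T0 in LD. The paired arrays of a group differed in this median by 0.001 to 0.334 log2 units, and the widest gap was in ST, where the arrays stood at 10358 and 13049. The correlation of a member with the median of the other members over the groups had a median of 0.868. It was above 0.5 for 57 members and below 0 for 4. This is a description over 12 points that share their array scaling.

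**Figure D1:**
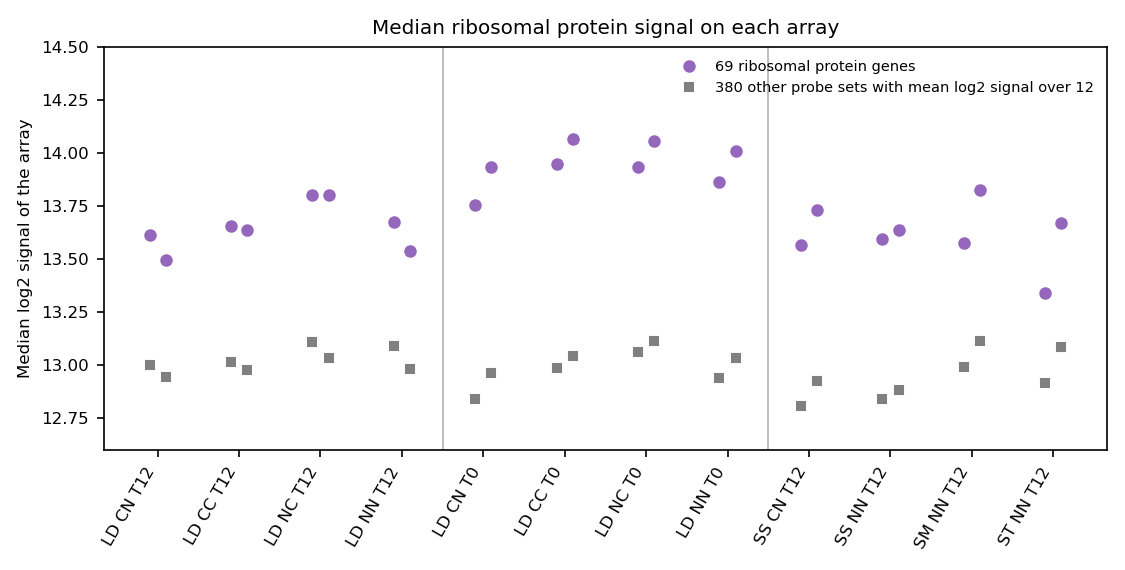
Median log2 signal of the 69 ribosomal protein members and of 380 other probe sets with mean log2 signal above 12, for each of the 24 arrays (y axis, log2 signal) by group (x axis). Within each genotype of LD the T12 arrays lie below the T0 arrays for the members, while the other bright probe sets show no such step between ages.

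By member, 61 of 69 had their highest group at T0. CC held the maximum of 40 members at T0, NC of 12 and NN of 9. The lowest group was ST of NN for 37 members and LD of CN at T12 for 13. These counts were not made over all probe sets, and members share the scaling of their array. The member median was 13.497 log2 units in ST and 13.574 in LD of CN at T12. The paired ST arrays differed in it by 0.334. RPL22, a large subunit protein with a known paralog, had the narrowest range over groups at 0.21 log2 units, with 13798 in CN at T12 and 15943 in NC at T0. RPS3A spanned 0.26. Ranges were widest in RPS19 (2.14, near background), RPL7A (1.73), RPS19BP1 (1.54) and RPS27L (1.49).

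**Figure D2:**
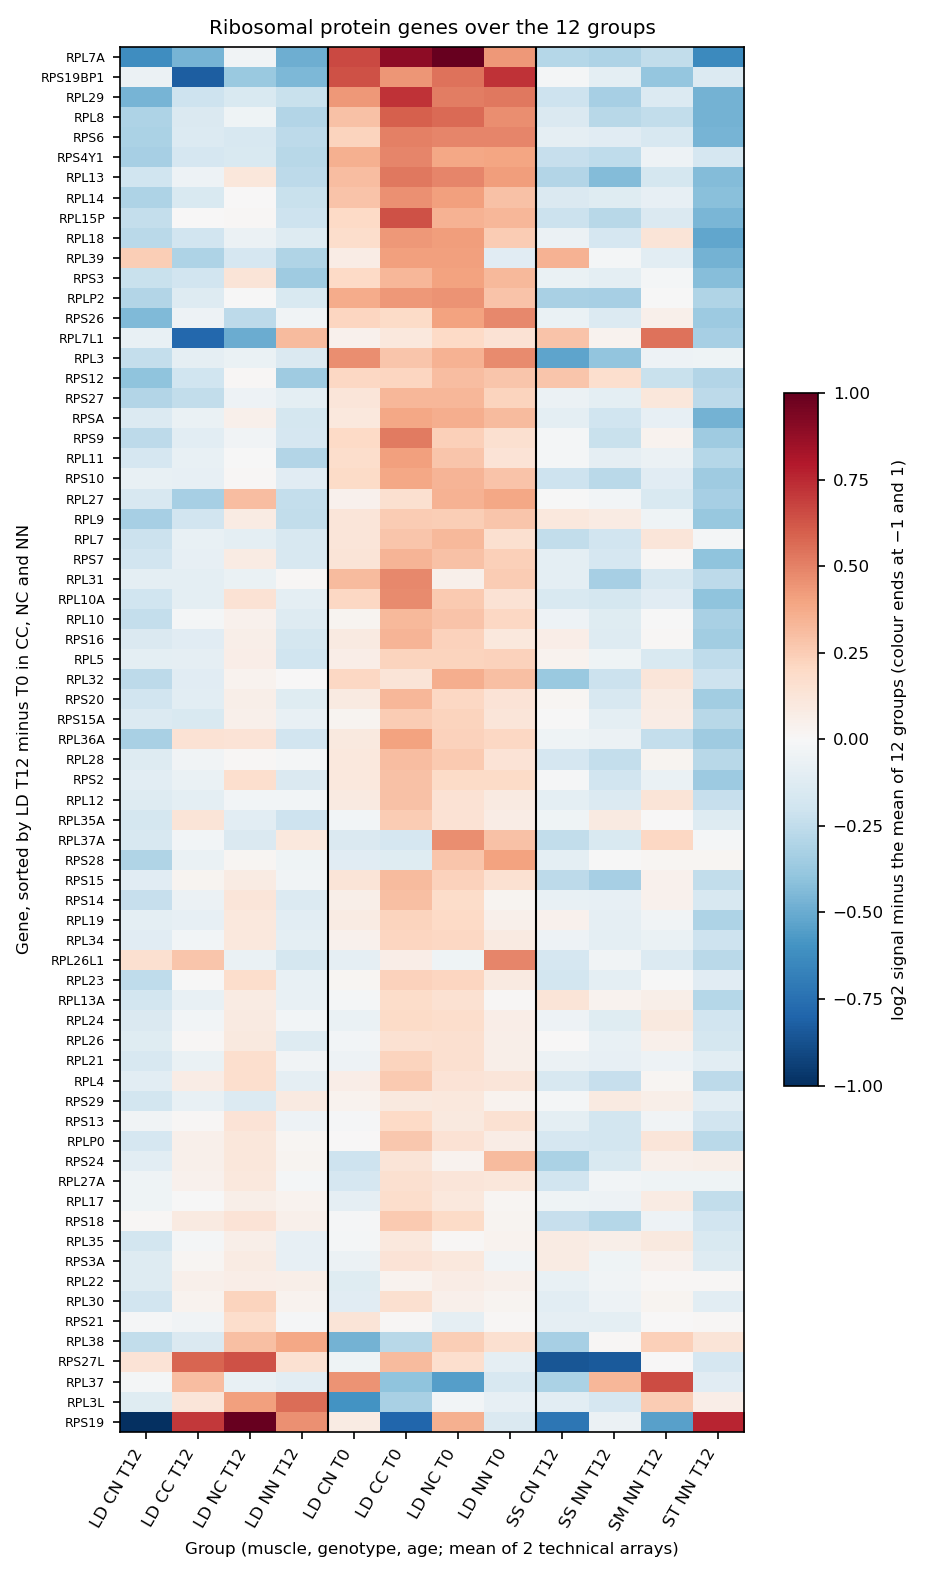
Log2 signal of each member (rows, ordered by the difference between T12 and T0 in CC, NC and NN of LD) in each of the 12 groups (columns), as the difference from the member's mean over groups. Colours end at 1 log2 unit in each direction. The T12 columns of LD lie below the T0 columns for most members, and RPL3L and RPS27L run the other way in LD.

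The comparison of ages in LD asked how the ribosomal protein mRNAs differ between muscle at 11 to 12 weeks and muscle of the newborn. In genotypes CC, NC and NN, which served together as 3 values per age, most members were lower at T12. Of 69 members, 61 were lower and 8 higher, with a median difference of -0.25 log2 units. Over all 15664 probe sets tested the median was 0.06, and over the 380 other bright probe sets it was -0.02. limma called 26 of 68 members at an adjusted p under 0.05 (38.2%), where 11.7% of all probe sets were called. Of these, 25 fell at T12, against 5.79% of all probe sets, and 1 rose, against 5.89%. At an unadjusted p under 0.05 there were 40 members, against 26.3% of all probe sets. The count depends on how the spread is estimated: without the intensity trend, which gives bright probe sets a smaller prior spread, 1 member was called (RPS19BP1), or 1.47% of members against 1.45% of all probe sets. The direction and median are computed without that choice. Without the trend, 8 members had an adjusted p under 0.1. The share of all probe sets under 0.1 was not counted, so this number cannot be set against it. Leaving out 1 array gave 15 to 33 calls, with the lowest count without replicate 2 of NC at T12. With NN as the only genotype 5 were called. For the fits without 1 array and with NN alone, the share of all probe sets called is not given. Of the 26 calls, 13 held in all 24 fits without 1 array. RPL10 lost its call in 20 of these fits (adjusted p up to 0.178), and the other 12 lost it in 1 to 5 of them. The log2 ratio of the 3′ to the 5′ GAPDH control probe sets, a sign of RNA quality, also differed with age. Its array values at T12 were -0.033 and 0.085 in CN, 0.066 and 0.043 in CC, 0.246 and 0.195 in NC and 0.187 and 0.246 in NN. At T0 they were 0.230 and 0.225 in CN, 0.131 and 0.216 in CC, 0.290 and 0.302 in NC and 0.246 and 0.307 in NN. Both T12 arrays were below both T0 arrays in CN, CC and NC, and the highest T12 and lowest T0 arrays were level in NN. The same ratio of the actin controls separated the ages only in CC, with 0.093 and 0.115 at T12 and 0.165 and 0.193 at T0. Its ages overlapped in CN (0.047 and 0.036 at T12, 0.009 and 0.223 at T0). They also overlapped in NC (0.294 and 0.031, 0.196 and 0.091) and NN (0.203 and 0.037, -0.070 and 0.149). The part of these ratios in the ribosomal protein result was not tested.

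The subunits had nearly the same median. The median difference was -0.25 over the 40 large subunit members, of which 14 fell, and -0.27 over the 24 small subunit members, of which 10 fell. RPS19BP1 fell as well. The 4 paralogs and like proteins had a median of 0.09, and RPL3L was the member that rose.

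Among large subunit proteins, RPL29, a small basic protein of the large subunit, had per array signals of 5160 and 4796 in CN, 5675 and 6247 in CC, 5987 and 6343 in NC and 6802 and 5082 in NN at T12. The T0 signals were 8538 and 10035 in CN, 11213 and 11501 in CC, 9119 and 10502 in NC and 9252 and 10573 in NN. No LD array at T12 reached any LD array at T0. In CC, NC and NN the difference was -0.78 ± 0.09 log2 units (SE, 3 groups per age, limma adjusted p = 0.00076).

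RPL7A, a large subunit protein whose gene also hosts small nucleolar RNAs, had 1985 and 1885 in CN, 1987 and 2321 in CC, 3254 and 2585 in NC and 2433 and 1840 in NN at T12. Newborn LD gave 4144 and 5327 in CN, 6257 and 4878 in CC, 6477 and 6208 in NC and 3665 and 4409 in NN. The ages did not overlap, and at T0 the NN arrays were below those of CC and NC. The difference in CC, NC and NN was -1.14 ± 0.17 (adjusted p = 0.0024). RPL7A was also among the dimmer large subunit members.

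RPL8, which lies near the peptidyl transferase centre, had 15498 and 12415 in CN at T12 and 12883 to 17776 over the 6 arrays of CC, NC and NN. Signals at T0 were 18723 and 23787 in CN and 21696 to 27082 over CC, NC and NN. All T12 arrays were below all T0 arrays. The difference in CC, NC and NN was -0.71 ± 0.09 (adjusted p = 0.0013).

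RPL3, which helps to shape the peptidyl transferase centre, had 8430 and 9698 in CN, 9786 and 10252 in CC, 9605 and 10846 in NC and 9024 and 10337 in NN at T12. At T0 it had 14283 and 15151 in CN, 11973 and 14011 in CC, 13136 and 14069 in NC and 13967 and 15812 in NN. The T12 arrays were again all below the T0 arrays. It fell by 0.47 ± 0.09 in CC, NC and NN (adjusted p = 0.0073). RPL11, which can bind the p53 regulator MDM2 when ribosome assembly is disturbed, fell by 0.40 (adjusted p = 0.034). RPL5, its partner in that role, differed by -0.30 and did not pass (adjusted p = 0.063).

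The other large subunit members that fell were RPL13, RPL14, RPL15P, RPL18, RPL39, RPL9, RPL7, RPL10 and RPLP2. They ranged from -0.54 for RPL13 (adjusted p = 0.0079) to -0.30 for RPL10 (adjusted p = 0.048). RPL7, which fell by 0.36 (adjusted p = 0.023), lost its call without replicate 2 of CC at T0, replicate 1 of CC, 2 of NC or 1 of NN at T12 (adjusted p up to 0.14), without the intensity trend, with NN alone and with NC and NN. RPLP2, an acidic protein of the stalk that recruits elongation factors, had 5178 and 4740 in CN and 5375 to 6277 in CC, NC and NN at T12, against 7300 and 8408 in CN and 6982 to 8791 in CC, NC and NN at T0. It fell by 0.48 in CC, NC and NN (adjusted p = 0.0079). RPLP0, the scaffold of the same stalk, had 19223 and 17229 in CN at T12 and 18921 and 22251 in CN at T0. Its difference in CC, NC and NN was -0.10 and did not pass (adjusted p = 0.501). RPLP1 was not among the members.

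Among small subunit proteins, RPS6, the substrate of the S6 kinases downstream of TOR, had 8555 and 9389 in CN, 10027 and 10293 in CC, 10029 and 10038 in NC and 9537 and 9078 in NN at T12. The T0 signals were 12095 and 14020 in CN, 14738 and 17145 in CC, 15537 and 15858 in NC and 15189 and 16277 in NN. The arrays of the ages did not overlap, and CN was lowest at T0. The difference in CC, NC and NN was -0.68 ± 0.08 (adjusted p = 0.00096).

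RPSA, a small subunit protein first described as a laminin receptor precursor, had 11722 and 10840 in CN and 10264 to 13466 in CC, NC and NN at T12. Newborn LD gave 12509 and 14331 in CN and 14544 to 16887 in CC, NC and NN. The lower CN array of T0 reached into the T12 range of the other genotypes. RPSA fell by 0.42 ± 0.09 in CC, NC and NN (adjusted p = 0.013).

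The probe set named RPS4Y1, a symbol absent from the sheep RefSeq table used here, had 9940 and 9310 in CN and 9922 to 11031 in CC, NC and NN at T12. Signals at T0 were 15267 and 15653 in CN and 14900 to 18531 in CC, NC and NN. The ages were far apart on every array, and the difference in CC, NC and NN was -0.63 ± 0.09 (adjusted p = 0.0015). RPS3, which also takes part in DNA repair, fell by 0.49 (adjusted p = 0.021). RPS26, RPS12, RPS27, RPS9, RPS10 and RPS7 fell by 0.47 for RPS26 down to 0.35 for RPS7.

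RPS19BP1, also known as AROS, had 516 and 428 in CN, 312 and 245 in CC, 404 and 354 in NC and 434 and 296 in NN at T12. At T0 it had 756 and 764 in CN, 672 and 656 in CC, 657 and 776 in NC and 838 and 775 in NN. No T12 array reached a T0 array. The difference was -1.12 ± 0.15 in CC, NC and NN (adjusted p = 0.0014).

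RPL3L, the striated muscle paralog of RPL3, went the other way. It had 1160 and 1275 in CN, 1357 and 1535 in CC, 1620 and 1904 in NC and 1850 and 2061 in NN at T12. The T0 signals were 818 and 942 in CN, 1030 and 1091 in CC, 1222 and 1382 in NC and 1305 and 1206 in NN. Within each genotype both T12 arrays were above both T0 arrays. RPL3L rose by 0.51 ± 0.14 in CC, NC and NN (adjusted p = 0.034). The call was lost without replicate 2 of CC or of NC at T12, replicate 1 of NC at T0 or replicate 2 of NN at T0. It held in 7 of 9 other settings and was lost without the intensity trend.

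The log2 signal of RPL3 minus that of RPL3L on the same array was 2.89 in CN, 2.79 in CC, 2.54 in NC and 2.31 in NN at T12, against 4.07 in CN, 3.61 in CC, 3.39 in NC and 3.57 in NN at T0. In the other muscles it was 2.58 in SS of CN, 2.78 in SS of NN, 2.70 in SM and 2.90 in ST. The LD groups of T12, and those of the other muscles, were all below every T0 group. The size of this difference within an array depends on the probes, so it can be set between groups only.

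RPS27L, a paralog of RPS27 that is a p53 target in human cells, had 8136 and 7246 in CN and 7369 to 11518 in CC, NC and NN at T12. Newborn LD gave 6152 and 7409 in CN and 6069 to 8812 in CC, NC and NN. The ages overlapped, and the difference of 0.33 in CC, NC and NN did not pass (adjusted p = 0.17). RPS27 itself fell by 0.42 (adjusted p = 0.012). RPL26, RPL26L1 and RPL7L1 did not pass, with differences of -0.13, -0.16 and -0.47 in the same comparison, and RPL7L1 lay near background.

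**Figure D3:**
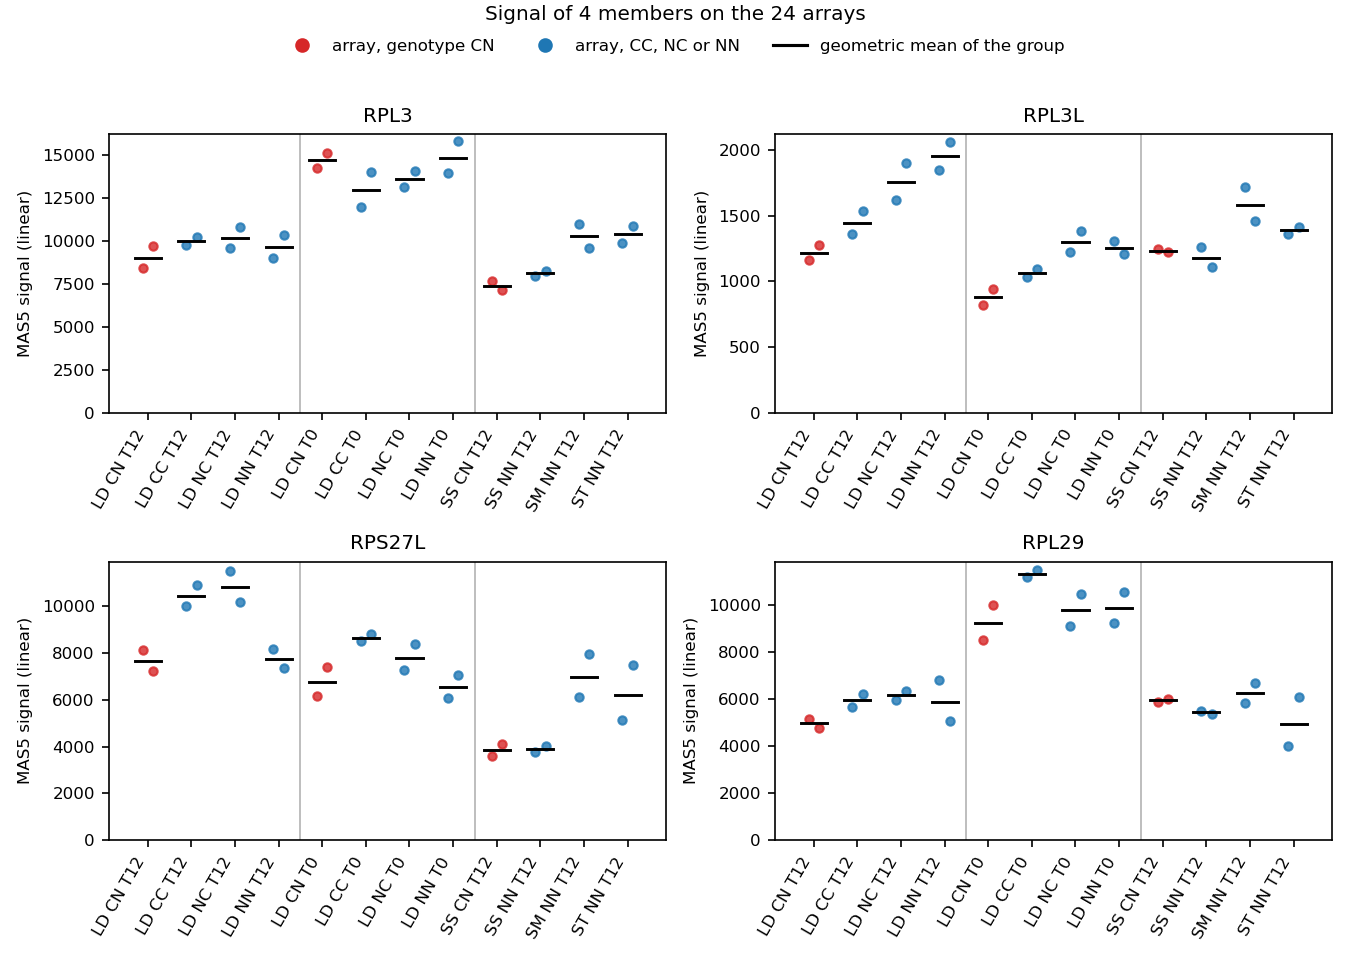
Signal of RPL3, RPL3L, RPS27L and RPL29 on each array (points, linear signal on the y axis) by group (x axis), with the group value as a line. RPL3 and RPL29 stand lower at T12 than at T0 in LD, RPL3L stands higher at T12 within each genotype, and RPS27L is lowest in SS.

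The separation between ages held for many members at once. The 4 LD groups at T12 lay wholly below the 4 LD groups at T0 in 31 of 69 members (44.9%), against 9.06% of all probe sets, and wholly above in 0 members, against 10%. With the SS, SM and ST groups added, all 8 T12 groups lay below the 4 T0 groups in 29 members (42.0%), against 5.12% of probe sets, and above them in 0, against 5.15%. The difference was larger in dimmer members. Among the 61 bright members split by signal, the median difference was -0.42 in the 20 dimmest, -0.31 in the middle 21 and -0.13 in the 20 brightest. RPL24, the brightest member, differed by -0.13 (adjusted p = 0.37) and RPS3A by -0.06 (adjusted p = 0.72). Whether signal near the top of the range compresses differences was not tested.

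Other probe sets of the same symbols did not all follow. Of 26 that were tested, 14 had the sign of the chosen one. Among the 5 with mean log2 signal above 9, RPL10 (-0.37, adjusted p = 0.02), RPLP0 (-0.33, adjusted p = 0.037) and RPL24 (-0.37, adjusted p = 0.076) were lower at T12. RPS3 stood at 0.08. The other RPS4Y1 probe set, of lower signal at 1808, was higher at T12 by 0.71 ± 0.12 (adjusted p = 0.0035), opposite to the chosen one.

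In CN, the callipyge animals, most members were again lower at T12. Of 69, 60 were lower and 9 higher, with a median of -0.24, against 0.01 over all probe sets and 0.09 over the other bright ones. Each age has 1 CN group, so the spread is borrowed from the other genotypes. limma called 4 of 68 members, all lower (5.88%), where 3.4% of all probe sets were called in either direction and 1.82% as lower. They were RPL29 (-0.90 ± 0.16, adjusted p = 0.019), RPS4Y1 (-0.68, adjusted p = 0.034), RPL3 (-0.70 ± 0.16, adjusted p = 0.036) and RPL7A (-1.28 ± 0.30, adjusted p = 0.044). All 4 were also called in CC, NC and NN. Of the 5 second probe sets with mean log2 signal above 9, that of RPL24 passed in CN (-1.36, adjusted p = 0.011). Those of RPL10 (-0.46), RPLP0 (-0.25), RPS3 (0.27) and RPS4Y1 (0.19) did not, and that of RPS4Y1 was opposite to the chosen one. RPL29 kept its call in all 24 fits without 1 array, while RPL3 lost it in 7, RPL7A in 9 and RPS4Y1 in 6 (adjusted p up to 0.0982). At an unadjusted p under 0.05 there were 19, against 18.4% of all probe sets. The counts that follow are given without the share of all probe sets called in the same fit. Without the intensity trend 0 were called. Leaving out 1 array gave 1 call (replicate 1 of CC, 2 of NC or 1 of NN at T12), 2 calls (replicate 2 of NN at T12, or replicate 2 of CC, 1 of NC or 2 of NN at T0), 9 calls (replicate 1 of CN at T12) or 10 (replicate 1 of CN at T0). RPLP2 differed by -0.66 (adjusted p = 0.053), RPL8 by -0.61 and RPS6 by -0.54, which did not pass. RPL3L differed by 0.47 in CN and did not pass (adjusted p = 0.32).

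The test of the difference between CN and the other genotypes in this age step found no member, where 0.0% of all probe sets passed. Its median over members was 0.01, with 38 members above 0, and quantile normalization turned it to -0.09, with 52 members below 0. limma gave 1 member at an unadjusted p under 0.05, against 8.89% of all probe sets. That member was RPL39, a small large subunit protein at the exit tunnel (0.66 ± 0.27, adjusted p = 0.51). RPL39 had 12547 and 12106 in CN at T12, against 7642 to 9384 over CC, NC and NN, so these groups did not overlap. Signals at T0 were 9153 and 13136 in CN, against 9469 to 14777 in CC, NC and NN. The CN arrays of T0 stood far apart from each other. The next members by p were RPL37 (-0.88, near background), RPS19BP1 (0.42) and RPL3 (-0.23).

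**Figure D4:**
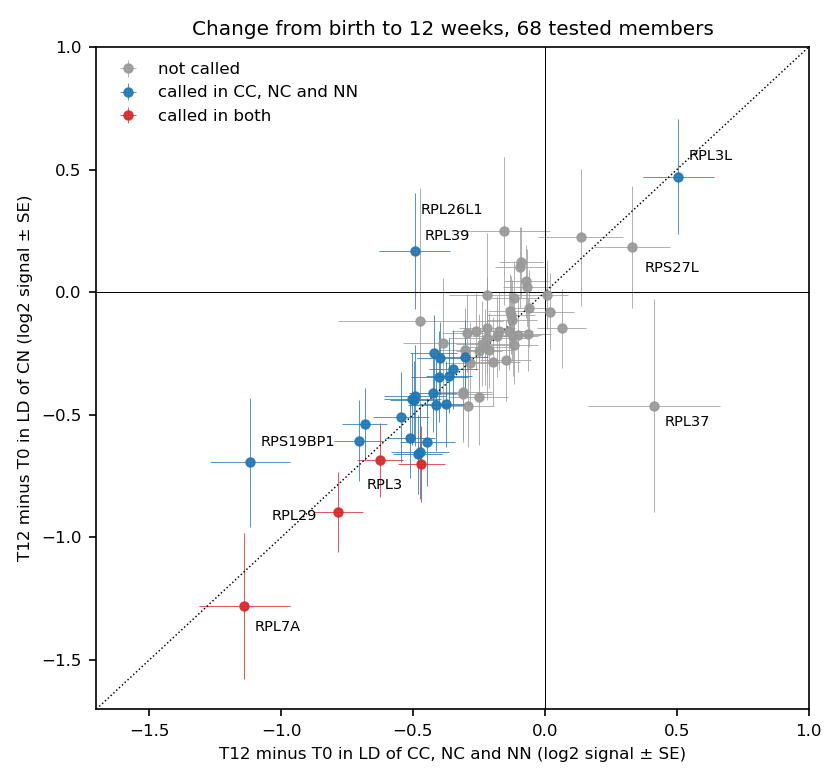
Difference in log2 signal between T12 and T0 of LD for each member, in CN (y axis) against the mean of CC, NC and NN (x axis), with the standard errors of limma as bars. Most members lie below 0 on both axes, and RPL3L lies above 0 on both.

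Genes that act with the ribosome were described from lists of the same pathway. Of 23 tested translation proteins with TOP mRNAs, 3 fell at T12 in CC, NC and NN (against 5.79% of all probe sets) and 0 rose (against 5.89%), with a median of -0.10. They were the elongation factors EEF1D (-0.70, adjusted p = 0.0066), EEF1B2 (-0.45, adjusted p = 0.0084) and EEF2 (-0.42, adjusted p = 0.013). Of 56 ribosome assembly factors, 8 fell and 1 rose, against the same shares of all probe sets, with a median of -0.08. The largest falls were in IMP3, a part of the U3 nucleolar complex (-1.34, adjusted p = 0.00024), FBL, the rRNA methyltransferase (-1.16, adjusted p = 0.00048), and NOP56, which acts with FBL (-1.14, adjusted p = 0.0025). UTP11 rose by 0.63 (adjusted p = 0.02). Of 11 members of RNA polymerase I and its factors, 0 passed in either direction, with a median of -0.01.

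FBL had 1196 and 1020 in CN and 943 to 1431 in CC, NC and NN at T12, against 2721 and 2930 in CN and 2516 to 2843 in CC, NC and NN at T0. The ages were far apart. In CN, 6 of the 56 assembly factors fell, against 1.82% of all probe sets, among them FBL (-1.35, adjusted p = 0.011), IMP3 (-1.29, adjusted p = 0.015) and RSL1D1 (-1.45, adjusted p = 0.025), with 0 rising and a list median of -0.26. The TOP list had 0 calls in CN, with a median of -0.20.

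Of 18 tested TOR, S6 kinase and MYC regulators, 3 rose and 1 fell in CC, NC and NN, against 5.89% of all probe sets that rose and 5.79% that fell. DDIT4, an inhibitor of TOR complex 1, rose by 1.53 (adjusted p = 0.00021), with 11686 to 13607 at T12 against 3272 to 5707 at T0 in those genotypes. In CN it had 9760 and 9857 at T12, against 8289 and 7765 at T0. MYC, a transcription factor that drives ribosome synthesis genes, had 333.9 and 299.7 in CN, 355.1 and 259 in CC, 429.2 and 575.1 in NC and 505.2 and 478.2 in NN at T12. At T0 it had 2887.6 and 2998.8 in CN, 993.5 and 1151.1 in CC, 1001.3 and 888 in NC and 687.7 and 629 in NN. CN was highest by far at T0, in 1 group of 2 technical arrays. The test of CN against CC, NC and NN at T0 called 0 of the 18 regulators, MYC included. MYC fell in both, with differences of -1.05 ± 0.22 in CC, NC and NN (adjusted p = 0.011) and -3.22 ± 0.38 in CN (adjusted p = 0.0062). The test of the difference between these steps passed for 0 of all probe sets, MYC included. MXI1, a MYC antagonist, and RHEB, an activator of TOR complex 1, rose in CC, NC and NN by 0.80 (adjusted p = 0.018) and 0.36 (adjusted p = 0.026).

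Markers of other cells also differed between ages. The 7 fibroblast and matrix genes summed to 30921 in CN, 52228 in CC, 41933 in NC and 41289 in NN at T12, against 47302 in CN, 59292 in CC, 67422 in NC and 60911 in NN at T0. Of these 7 genes, 2 were higher and 5 lower at T12 in CC, NC and NN, with a median of -0.04, and 2 were higher and 5 lower in CN, with a median of -0.16. COL1A1 and COL1A2, the genes of type I collagen, fell in CC, NC and NN and in CN. All 3 smooth muscle genes rose in CC, NC and NN, and their sum was 4914 to 6559 in LD at T12, against 3274 to 4210 at T0. The red cell genes summed to 141 to 152 at T12, against 160 to 384 at T0, and HBB fell by 2.26 in CC, NC and NN. Of 4 red cell genes tested, 1 was higher and 3 lower in CC, NC and NN, as in CN. The immune genes summed to 288 to 421 in LD at T12, against 208 to 281 at T0. Of 3 immune genes tested, 2 were higher and 1 lower in CC, NC and NN, as in CN. CD3E, a part of the T cell receptor complex, rose by 1.94 in CC, NC and NN (adjusted p = 0.002). The fat cell genes summed to 303 to 771 at T12, against 661 to 1250 at T0, and LPL, the lipoprotein lipase, fell by 1.31 in CN (adjusted p = 0.034). The 10 fibre markers on the array were all higher in CC, NC and NN, and 1, MB, passed. The part of these cells in the ribosomal protein result was not tested. In bulk tissue, fewer cells of a type and less RNA per cell cannot be told apart.

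The comparison of CN with CC, NC and NN in LD asked whether callipyge muscle differs in ribosomal protein mRNA. limma called 0 members at T12, where 0.179% of all probe sets were called, and 5 had an unadjusted p under 0.05, against 9.97% of all probe sets. It also called 0 at T0, where 0.172% were called, and 6 had an unadjusted p under 0.05, against 11.7%. The shift of the median depended on the scaling. At T12 the median was -0.14 with the authors' scaling, against -0.07 over the other bright probe sets, and quantile normalization left -0.05, with 47 of 69 members lower. At T0 the median was -0.15, with 63 members lower, against -0.17 over the other bright probe sets. Quantile normalization turned it to 0.05, with 49 members higher. Large and small subunit members had nearly the same median at T12, -0.15 and -0.13. The GAPDH 3′ to 5′ log2 ratio was -0.033 and 0.085 in CN at T12, against 0.043 to 0.246 in CC, NC and NN. The actin ratio was 0.047 and 0.036 in CN, within the 0.031 to 0.294 of CC, NC and NN. Of the 10 fibre markers, the slow fibre genes TNNT1 (-0.97, adjusted p = 0.037) and MYH7 (-0.89, adjusted p = 0.049) fell in CN at T12. The part of these in the CN values was not tested.

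**Figure D5:**
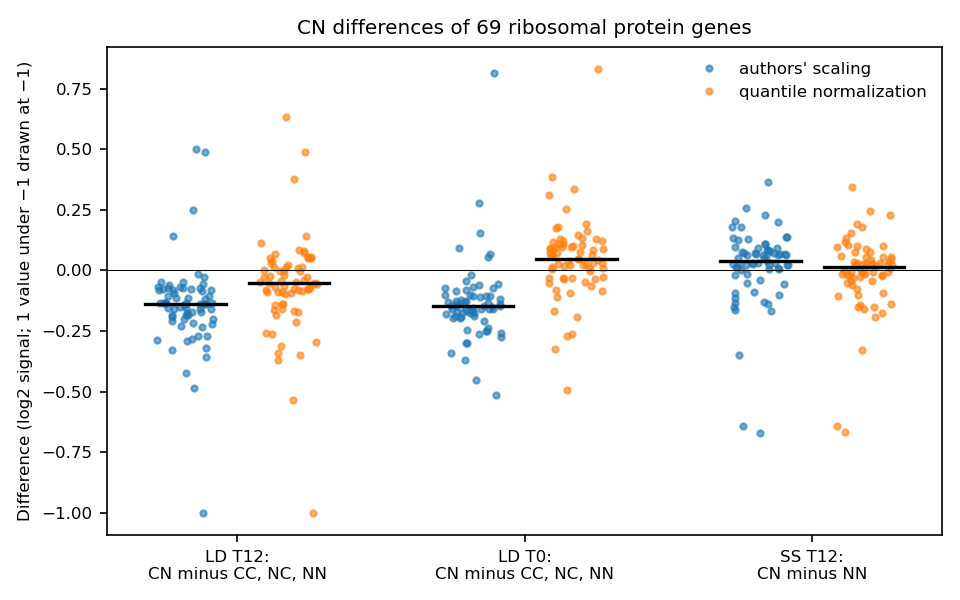
Difference in log2 signal between CN and the mean of CC, NC and NN in LD for each member (points), at T12 and at T0, and between CN and NN in SS at T12. Values are shown with the authors' scaling and after quantile normalization. The LD clouds lie mostly below 0 with the authors' scaling and move up with quantile normalization, to above 0 at T0. The SS cloud lies mostly above 0 with the authors' scaling (51 members higher, 18 lower) and moves down with quantile normalization (37 higher, 32 lower). The LD T12 value of RPS19, near background, is below -1 with both scalings and is drawn at -1.

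Some members stood apart in CN on the single arrays. RPL3L in CN, at 1160 and 1275 at T12 and 818 and 942 at T0, was below every array of CC, NC and NN of the same age. The differences were -0.49 ± 0.19 at T12 (adjusted p = 0.404) and -0.45 ± 0.19 at T0 (adjusted p = 0.387), and neither passed. RPL3 in CN at T0 lay within the range of the other genotypes. RPL39 was higher in CN at T12 by 0.50 ± 0.19 (adjusted p = 0.393), RPS19BP1 by 0.49 (adjusted p = 0.474), and RPL30 stood at -0.29 ± 0.13 (adjusted p = 0.483). RPS24, a small subunit protein, had 12099 and 11528 in CN at T0, against 12876 to 17044 in CC, NC and NN, a difference of -0.37 ± 0.13 (adjusted p = 0.301). RPL27A differed by -0.30 (adjusted p = 0.343) and RPS6 by -0.28 (adjusted p = 0.398) at T0. Quantile normalization left -0.17 for RPS24, -0.11 for RPL27A and -0.09 for RPS6 at T0 and -0.17 for RPL30 at T12, while RPL3L stood at -0.53 at T12 and -0.49 at T0.

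RPL38, a small protein of the large subunit, followed the genotypes in another way. In LD at T12 it had 9190 and 11544 in CN and 10121 and 12045 in CC, against 14240 and 15821 in NC and 17223 and 14758 in NN. The T0 signals were 8343 and 9325 in CN and 9193 and 11081 in CC, against 13604 and 15480 in NC and 13648 and 13598 in NN. All 8 LD arrays of the genotypes that carry a C allele from the father were below all 8 arrays of NC and NN. In SS it had 10149 and 9259 in CN, against 12126 and 12542 in NN. RPL38 differed by -0.48 ± 0.12 between CC and NN over both ages (adjusted p = 0.603), by -0.42 between CN and the other genotypes at T12 (adjusted p = 0.6) and by -0.51 at T0 (adjusted p = 0.42). With quantile normalization the CN differences were -0.35 at T12 and -0.26 at T0. Against NC and NN alone the CN difference at T0 was -0.67 and passed (adjusted p = 0.038), and at T12 it was -0.59 and did not (adjusted p = 0.104). That comparator leaves out CC, whose RPL38 arrays were also low, and RPL38 was picked after its values were seen. It was not run with quantile normalization, and the share of all probe sets called with it is not given.

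By group value, the CN and CC groups of LD lay wholly below the NC and NN groups in 2 of 69 members, RPL38 and RPS28, or 2.90%, against 1.45% of all probe sets, and wholly above in 0, against 1.14%. This grouping was chosen after the values of RPL38 were seen. The array overlap of RPS28, with 475 to 785 at T12 in the 8 LD arrays, was wide.

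The comparisons of NC and of CC with NN in LD, with age in the fit, called 0 members each, where 0.0128% of probe sets were called in each. At an unadjusted p under 0.05 there were 2 members for NC, against 4.28% of probe sets, and 3 for CC, against 5.48%. The median was 0.12 for NC minus NN, with 57 members higher, and 0.08 for CC minus NN, with 53 higher. Quantile normalization left 0.05 for NC, with 47 higher, and 0.06 for CC, with 51 higher. Without 1 array the median was 0.07 to 0.16 for NC and 0.04 to 0.13 for CC. RPL7A had the smallest p in NC minus NN (0.56, adjusted p = 0.991), before RPS27L (0.37), RPS3 (0.28) and RPL13 (0.22). In CC minus NN it was RPL38, given above, before RPS27L (0.42), RPL3L (-0.34) and RPL35A (0.26).

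In SS, which the labels give in CN and NN at T12, limma called 0 members between CN and NN, where 0.0% of all probe sets were called, and 0 members had an unadjusted p under 0.05, against 4.19%. The median was 0.04, with 51 members higher in CN. It was 0.02 with quantile normalization, with 37 higher and 32 lower, and -0.02 to 0.11 without 1 array. RPL39 was again higher in CN, with 12724 and 13827 in CN, against 10574 and 10024 in NN (0.37, adjusted p = 0.99988). RPL37 stood at -0.64, RPL38 at -0.35 and RPS16 at 0.20 with the same adjusted p. The test of the difference between the CN effects in LD and in SS called 0 members, where 0.0% of probe sets were called, and 0 at an unadjusted p under 0.05, against 4.97%. Its median was -0.19, and -0.05 with quantile normalization. RPL29 (-0.40), RPL3L (-0.55), RPS26 (-0.40) and RPS9 (-0.36) had the smallest p.

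The comparison of muscles at T12 without the callipyge trait asked which genes differ between muscles of different fibre type. The F test over SS, SM, ST and LD called 1 member, RPS27L (adjusted p = 0.038), where 1.28% of all probe sets were called, and 4 members had an unadjusted p under 0.05, against 12.7%. RPS27L had 3746 and 4040 in SS, 6100 and 7971 in SM and 5151 and 7494 in ST, against 7369 to 11518 over CC, NC and NN of LD. SS was below every array of the other muscles. With quantile normalization the adjusted p of the F test was 0.052, without the intensity trend it was 0.33, and the call was lost without replicate 2 of NC or 1 of NN at T12, or replicate 1 of NC or 2 of NN at T0 (adjusted p up to 0.0813).

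SS of NN minus LD of CC, NC and NN was -1.30 ± 0.20 for RPS27L (adjusted p = 0.0063), the 1 member called there, where 2.96% of all probe sets were called. At an unadjusted p under 0.05 there were 7 members, against 15.8%. Fat cell genes LPL (2.80, adjusted p = 0.00014) and ADIPOQ (1.71, adjusted p = 0.036) rose in SS in the same comparison. Of the 10 fibre markers, 3 were higher and 7 lower in SS. Slow TNNT1 rose (0.68, adjusted p = 0.025), and fast TNNT3 (-0.58, adjusted p = 0.025) and TNNI2 (-0.49, adjusted p = 0.049) fell. The part of these in the RPS27L value was not tested. The RPS27L call held in all 24 fits that left out 1 array, and was lost without the intensity trend (adjusted p = 0.14). The median over members was -0.08, against -0.13 over the other bright probe sets, and quantile normalization turned it to 0.01. SS of CN minus LD of CN gave the same direction for RPS27L, with 3586 and 4128 in SS and 8136 and 7246 in LD (-0.997 ± 0.248, adjusted p = 0.062). limma called 0 members there, where 2.97% of probe sets were called, and 3 had an unadjusted p under 0.05, against 16.3%.

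RPS12, a small subunit protein, was higher in SS than in LD in CN, with 17192 and 17723 in SS and 12465 and 9577 in LD (0.68 ± 0.18, adjusted p = 0.078). RPL9 (0.44) and RPS26 (0.38) came next in that comparison. RPS12 in SS of NN had 16020 and 16379, against 11058 and 11547 in LD of NN. It did not pass in the test of SS of NN against LD of CC, NC and NN, where RPS27L was the 1 member called. SS minus the mean of SM and ST in NN called 0 members, where 0.996% of probe sets were called and 3 members had an unadjusted p under 0.05, against 12.1%. RPS27L differed by -0.76 (adjusted p = 0.175), RPS12 by 0.42 (adjusted p = 0.305), RPL3 by -0.35 and RPL9 by 0.29.

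The hind limb muscles differed from LD in no called member, where 0.0447% of probe sets were called, and 2 members had an unadjusted p under 0.05, against 7.34%. The median over members of SM and ST minus LD was -0.09, and 0.0009 without the lower ST array. RPS27L stood at -0.54 (adjusted p = 0.461), RPL36A at -0.33, RPSA at -0.21 and RPS18 at -0.21. Between SM and ST 0 members passed, where 0.00638% of probe sets were called, and 9 had an unadjusted p under 0.05, against 6.68%. The median was 0.25 with 63 members higher in SM. It was 0.09 without the lower ST array (replicate 1), whose member median was 10358, and 0.11 with quantile normalization. RPL18 had 13214 and 14077 in SM, against 6735 and 11204 in ST (0.65, adjusted p = 0.365). RPS20 (0.43), RPS7 (0.42) and RPLP0 (0.39) were next by p.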

How the data were processed

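The authors deposited linear intensity for each probe set of 24 arrays. They were made with MAS5, of unstated version, per the submitters' processing notes. The 2% trimmed mean was 199.926 to 199.937 on every array, so arrays share one scale. Values at or under 1 (5477 of 579072) were set to 1 before log2, and the arrays of a group were averaged. Of 24128 probe sets, 112 controls were left out, and 15664 above a signal of 49.7 (the median) in at least 1 group were tested. Symbols came from the platform's probe-to-gene table, in which 13292 probe sets have 1 symbol, 86 several and 10638 none. Of 69 members, 65 matched the sheep RefSeq table.

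limma 3.58.1 in R 4.3.3 (lmFit, eBayes with intensity trend) was fitted to the 12 group values in 8 cells, CC, NC and NN of LD at an age forming 1 cell of 3 values. This left 4 residual degrees of freedom (prior 6.88), and cells of 1 value borrow that spread. A second fit set NC and CC against NN in the 8 LD groups, adjusting for age (3 residual, prior 7.14). P-values are two-sided, with Benjamini-Hochberg adjustment over all tested probe sets and a threshold of 0.05. The fit was also run on simulated data with known changes. These were drawn as independent noise with the spread that limma fitted by intensity. Such data cannot test the intensity trend itself, or the use of CC, NC and NN as 3 values of 1 cell.

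The members and lists were chosen with earlier results of these data known. Named were members called (of over 12, the 6 most positive and 6 most negative), otherwise the 4 of smallest p, the highest and lowest in mean signal, the 4 widest and 2 narrowest in range, and always paralog pairs, stalk proteins, RPSA and RPS6. Other names, among them RPL5, RPL11, RPS28, and RPL38 across genotypes, were chosen after values were seen. The bright set, the signal classes, the second probe sets, the group separations and the RPL3 minus RPL3L difference were chosen after values were seen. Alternatives were quantile normalization, a pseudocount of 16, other filters, no trend, all 24 arrays, other LD comparators and leaving out each array. The number of arrays and signal over background limit precision.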

Additional observations from a re-analysis of the deposited data

How the results depend on the processing

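Of the 10 other settings, the filters, the trend and the fits to 24 arrays do not enter the median difference and could not change it. The median difference between T12 and T0 in CC, NC and NN kept its direction under the remaining settings and in all 24 fits without 1 array (-0.282 to -0.195). Its count of 26 called members was 1 without the intensity trend, 5 with NN alone, 14 with NC and NN, and 15 to 33 without 1 array. In CN the 4 calls were 8 with quantile normalization, 2 with no filter, 9 with the 75th percentile filter, 0 without the trend, 11 on 24 arrays with or without the replicate block, and 1 to 10 without 1 array. The counts of calls in this section are given without the share of all probe sets called in the same setting. A change in a count may follow a change in calls over all probe sets, and is no result about the members alone. Quantile normalization moved the CN median to -0.05377 at T12 and turned it to 0.04689 at T0, left -0.05119 for LD against SS and 0.1123 for SM minus ST, turned SS of NN minus LD to 0.01337 and the difference of the age steps to -0.09. It also ended the call of the F test over muscles (0 members, and 0 without the trend). CN against NC and NN at T0 called 1 member. For SS of NN minus LD, 0 were called without the trend and 3 on 24 arrays with or without the replicate block; SS minus SM and ST then had 1. SS of CN minus LD of CN had 1 call with quantile normalization and with 16 added, 2 with the 75th percentile filter and 3 on 24 arrays with or without the replicate block. The fits to 24 arrays estimated a within-group correlation of 0.019 without and 0.037 with the replicate block. They thus treated the technical arrays almost as independent samples, so their counts rest on more replication than the groups hold. Array numbers showed no common pairing over all groups: 33 of 66 group pairs correlated above 0.1, with a median of 0.094 and a range of -0.411 to 0.544. The member median was lower on replicate 2 than on replicate 1 in every LD group at T12, by little in CC and NC. It was higher on replicate 2 in every LD group at T0 and in SS, SM and ST. A single replicate block cannot take up shifts of opposite sign, and their part in the age difference was not tested. The block changed none of the counts on 24 arrays.

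Without 1 array, the median ranged from -0.2215 to -0.07213 for CN at T12, -0.2668 to -0.0401 for CN at T0, -0.3476 to -0.1271 for T12 minus T0 in CN, -0.122 to 0.1323 for the difference of these steps, 0.0863 to 0.3824 for SM minus ST and -0.1829 to 0.0009003 for SM and ST minus LD. Calls were 0 to 2 for the F test and 0 to 1 for SS of CN minus LD of CN. RPL3 in CN at T0 was -0.01463 against NN alone. RPL7L1, near background, was 0.1709 between ages in NN alone. Between ages in CN and without 1 array, RPL7L1 ranged from -0.505 to 0.2664, RPL26 from -0.2593 to 0.07005 and RPL26L1 from -0.2484 to 0.7481. The cause of these changes was not tested.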
